A study of Mus musculus with 16 samples.

Results

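The splicing factor genes analysed here are the mouse genes whose symbol starts with Srsf, Sf3a, Sf3b, Snrp, Hnrnp or Prpf, with symbols holding -ps (pseudogenes) left out. A gene was kept if it had at least 10 counts in at least 8 of the 16 libraries. Of 24421 symbols in the count files, 65 carried one of these prefixes and 62 were kept: 11 Snrp genes, 9 Sf3 genes (Sf3a and Sf3b together), 12 Prpf genes, 10 Srsf genes and 20 Hnrnp genes. The 3 that were dropped were Prpf40b, which reached 10 counts in 4 libraries, Srsf12, which reached them in 0, and Snrpn, whose count was 0 in all 16. Nearest to the limit among the kept genes were Snrpf, with 10 counts or more in 11 libraries, and Hnrnph2, with 14.

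The libraries came from myeloid-derived suppressor cells (MDSCs), immature myeloid cells that accumulate in tumor-bearing hosts and restrain T cells. Both subsets were sorted from the spleens of C57BL/6 mice carrying subcutaneous B16.F10 melanoma: monocytic M-MDSCs, gated as CD11b high Ly6C+ Ly6G-, and granulocytic G-MDSCs, gated as CD11b high Ly6C- Ly6G+. The mice were wild type (WT) or Nlrp3-/-, a germline knockout made by inserting an EGFP cassette, which lacks the inflammasome sensor NLRP3 in every cell of the host while the implanted tumor keeps the gene. There were 4 libraries in each of the 4 groups, each RNA came from 1 mouse, and the same-numbered M-MDSC and G-MDSC libraries of a genotype came from the same animal, 8 mice in all. Every group bore a tumor, tumor-free animals are not analysed here, and the study's methods give 1 general day of analysis after implantation, unless stated otherwise, and name no day for these libraries. Those methods also give the WT mice as C57BL/6J from a commercial breeder and the knockout as a line on a C57BL/6 background obtained from another laboratory, so substrain and source may differ with the genotype. The study also reports smaller B16.F10 tumors in Nlrp3-/- than in WT mice, and a changed balance of M-MDSCs and G-MDSCs in their spleens. Tumor size may thus differ with the genotype here, and its part cannot be told apart from that of the gene.

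Splicing removes introns from pre-mRNA and is carried out by the spliceosome, which assembles anew on each intron from the U1, U2 and U4/U6.U5 small nuclear ribonucleoproteins (snRNPs). The Snrp genes encode the Sm ring that surrounds the snRNA and proteins particular to U1 and U2, the Sf3 genes encode the SF3A and SF3B complexes by which the U2 snRNP holds the branch point, and most Prpf genes encode pre-mRNA processing factors of the tri-snRNP or of the later catalytic complexes. SR proteins, encoded by the Srsf genes, mostly promote the use of an exon, and the hnRNPs, encoded by the Hnrnp genes, coat nascent RNA and often oppose it. The libraries count tags at the 3′ ends of polyadenylated RNA, so they measure how much mRNA each of these genes has and not how any transcript was spliced.

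Proximal promoters are shown for 8 genes on which the comparisons turn, 5 of them lower in Nlrp3-/- than in WT cells of both subsets and 3 that differ between the subsets in both genotypes. The windows run from 250 bases before to 50 bases after the RefSeq start, on build GRCm38.p6, 5′ to 3′ along the gene. Capitals mark matches, on either strand, to CCGGAAG (the ETS motif), CCAAT (the CCAAT box), GGGCGG (the GC box), TATAAA (the TATA box) and TGACGTCA (the cAMP response element). The window of Prpf4b is chr13:34875279-34875578 on the plus strand, that of Prpf38b chr3:108911680-108911979 on the minus strand, that of Hnrnpr chr4:136310692-136310991 on the plus strand, and that of Hnrnpul1 chr7:25754710-25755009 on the minus strand. The window of Snrpc is chr17:27839837-27840136 on the plus strand, that of Snrpb2 chr2:143062819-143063118 on the plus strand, that of Snrpg chr6:86371290-86371589 on the plus strand, and that of Srsf5 chr12:80945249-80945548 on the plus strand.
Prpf4b: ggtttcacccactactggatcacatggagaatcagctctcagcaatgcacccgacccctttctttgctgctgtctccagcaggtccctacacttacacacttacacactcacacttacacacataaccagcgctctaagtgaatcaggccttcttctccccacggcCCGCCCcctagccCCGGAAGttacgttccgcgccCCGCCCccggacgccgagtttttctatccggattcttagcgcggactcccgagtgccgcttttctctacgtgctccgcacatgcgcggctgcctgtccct
Prpf38b: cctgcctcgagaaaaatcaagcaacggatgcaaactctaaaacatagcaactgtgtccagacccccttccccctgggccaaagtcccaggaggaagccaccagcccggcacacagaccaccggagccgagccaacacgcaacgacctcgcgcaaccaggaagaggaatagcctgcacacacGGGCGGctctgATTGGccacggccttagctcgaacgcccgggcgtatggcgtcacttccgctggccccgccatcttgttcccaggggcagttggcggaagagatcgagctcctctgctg
Hnrnpr: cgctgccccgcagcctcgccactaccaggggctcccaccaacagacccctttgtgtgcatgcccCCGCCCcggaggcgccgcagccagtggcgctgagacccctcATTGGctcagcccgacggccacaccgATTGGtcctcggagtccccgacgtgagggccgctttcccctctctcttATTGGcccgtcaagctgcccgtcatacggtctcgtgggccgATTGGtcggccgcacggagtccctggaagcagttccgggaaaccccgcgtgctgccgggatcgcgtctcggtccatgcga
Hnrnpul1: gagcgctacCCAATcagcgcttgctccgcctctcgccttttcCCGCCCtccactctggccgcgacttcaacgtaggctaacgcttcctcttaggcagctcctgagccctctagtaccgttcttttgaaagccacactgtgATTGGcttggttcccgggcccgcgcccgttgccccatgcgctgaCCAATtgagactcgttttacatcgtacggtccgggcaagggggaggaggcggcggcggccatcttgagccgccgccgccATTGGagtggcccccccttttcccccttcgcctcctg
Snrpc: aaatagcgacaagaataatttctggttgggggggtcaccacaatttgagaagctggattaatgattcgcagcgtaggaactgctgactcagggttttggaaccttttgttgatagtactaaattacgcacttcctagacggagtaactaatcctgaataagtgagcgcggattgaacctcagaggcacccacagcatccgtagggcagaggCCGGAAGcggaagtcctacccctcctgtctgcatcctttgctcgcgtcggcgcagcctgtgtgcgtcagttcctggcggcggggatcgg
Snrpb2: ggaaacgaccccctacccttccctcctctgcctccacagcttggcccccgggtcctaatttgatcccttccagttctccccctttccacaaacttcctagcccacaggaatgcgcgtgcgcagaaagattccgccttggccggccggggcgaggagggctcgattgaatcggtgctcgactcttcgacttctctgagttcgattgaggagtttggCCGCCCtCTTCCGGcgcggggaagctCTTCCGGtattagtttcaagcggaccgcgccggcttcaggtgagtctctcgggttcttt
Snrpg: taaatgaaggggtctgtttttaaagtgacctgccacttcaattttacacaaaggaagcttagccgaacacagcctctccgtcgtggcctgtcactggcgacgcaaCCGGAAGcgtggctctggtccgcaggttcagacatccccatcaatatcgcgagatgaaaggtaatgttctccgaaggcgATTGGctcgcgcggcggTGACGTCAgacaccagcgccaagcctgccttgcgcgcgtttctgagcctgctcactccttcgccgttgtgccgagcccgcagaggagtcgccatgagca
Srsf5: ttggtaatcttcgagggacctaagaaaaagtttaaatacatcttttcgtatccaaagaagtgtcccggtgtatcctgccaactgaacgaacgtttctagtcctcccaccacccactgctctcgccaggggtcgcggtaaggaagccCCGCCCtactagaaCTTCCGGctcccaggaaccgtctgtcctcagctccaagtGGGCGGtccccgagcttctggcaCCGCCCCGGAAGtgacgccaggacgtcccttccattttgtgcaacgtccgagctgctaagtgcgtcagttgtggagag
Hnrnpr and Hnrnpul1 each hold 4 CCAAT boxes and 1 GC box, Prpf4b holds 1 ETS motif and 2 GC boxes, and the window of Snrpc holds 1 ETS motif alone. Srsf5 holds 2 ETS motifs and 3 GC boxes, of which 1 ETS motif and 1 GC box overlap.

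RefSeq gave a window for 54 of the 62 genes. The ETS motif was present in 19 of them (35.2%), against 9.12% of all 27025 promoters of the same length. The GC box was found in 36 (66.7%, against 35.9%) and the CCAAT box in 26 (48.1%, against 37.9%). The TATA box was found in 6 (11.1%, against 14.2%) and the cAMP response element in 2 (3.7%, against 1.88%). Among the 5 windows of genes lower in Nlrp3-/- cells of both subsets, 2 held the ETS motif, 3 the CCAAT box and 4 the GC box. The 54 windows belong to genes that passed a count limit, which was not asked of the 27025, so the sets are unlike in expression. These are matches of letters and describe the windows only.

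Depth ran from 2295967 to 6079866 counts per library (median 4839508.5). Nlrp3 itself followed the labels: among M-MDSCs it lay at 40.7 to 88.9 CPM (read counts scaled to a common library size) where the mice were WT and at 0.514 to 1.88 where they were Nlrp3-/-, and among G-MDSCs at 252 to 331 and 5.51 to 13.6. Its log2 fold change in M-MDSCs was -6.06 (SE 0.40, adjusted p = 9.67e-06), and that in G-MDSCs was -5.06 (SE 0.26, adjusted p = 6.79e-08). The sort labels held against markers, since Ccr2 lay at 794 to 1560 CPM in M-MDSCs and 3.39 to 12.4 in G-MDSCs, and Cxcr2 at 0.209 to 3.52 and 853 to 3190. The summed level of 11 granulocytic markers was 1490 to 8990 CPM in WT M-MDSCs, with replicate 2 at the top, and 2260 to 2600 in Nlrp3-/- M-MDSCs. Melanoma markers summed to at most 1.45 CPM in any library.

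CPM values below are scaled by TMM factors (the trimmed mean of M-values, which levels the bulk of genes between libraries) over all 16 libraries. Because each transcript gives about the same number of 3′ tags whatever its length, and because tag yield differs between genes, levels are compared between groups for a gene and not between genes. A gene is called higher or lower if its Benjamini-Hochberg adjusted p in edgeR's quasi-likelihood test, over all genes tested, is under 0.05 and its fold change exceeds 1.5. The share of all genes called is given for the fits with TMM and all libraries only. Counts under other scalings, offsets, blocks or left-out libraries show how the calls move, and not whether these genes differ from others. In sorted bulk samples, a smaller number of cells of some state and less RNA per cell cannot be told apart.

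As shares of all counts, the 62 genes together took 0.844 to 0.974% (WT) and 0.86 to 0.934% (Nlrp3-/-) in the M-MDSC libraries, and 0.574 to 0.635% (WT) and 0.541 to 0.57% (Nlrp3-/-) in the G-MDSC libraries. After TMM scaling they summed to 6872 to 7646, 6413 to 6717, 7964 to 8126 and 7089 to 7630 CPM in the same order. The order of the subsets is thus opposite on these scales: the TMM factors were 1.2 to 1.46 in M-MDSC libraries and 0.722 to 0.804 in G-MDSC libraries, in which the granulocytic markers alone took 117000 to 177000 CPM. On the TMM scale the Prpf sum was 1162 to 1280 CPM in WT and 671.6 to 904.2 in Nlrp3-/- M-MDSCs, and 1122 to 1296 and 680.6 to 713.4 in G-MDSCs. The Prpf libraries of the genotypes therefore did not overlap in either subset. The Snrp sum was 880.3 to 927.1 and 906.6 to 1073 CPM in M-MDSCs and 375.1 to 467 and 391.8 to 460.8 in G-MDSCs, where the subsets did not overlap and the genotypes did. The Sf3 sum was 1210 to 1351, 1028 to 1070, 1788 to 2067 and 1518 to 1679 CPM in the 4 groups in the order above, the Srsf sum 1176 to 1533, 1207 to 1386, 1298 to 1714 and 1338 to 1640, and the Hnrnp sum 2273 to 2853, 2451 to 2691, 2869 to 3012 and 2946 to 3185. The Srsf sums of all 4 groups overlapped.

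**Figure D1:**
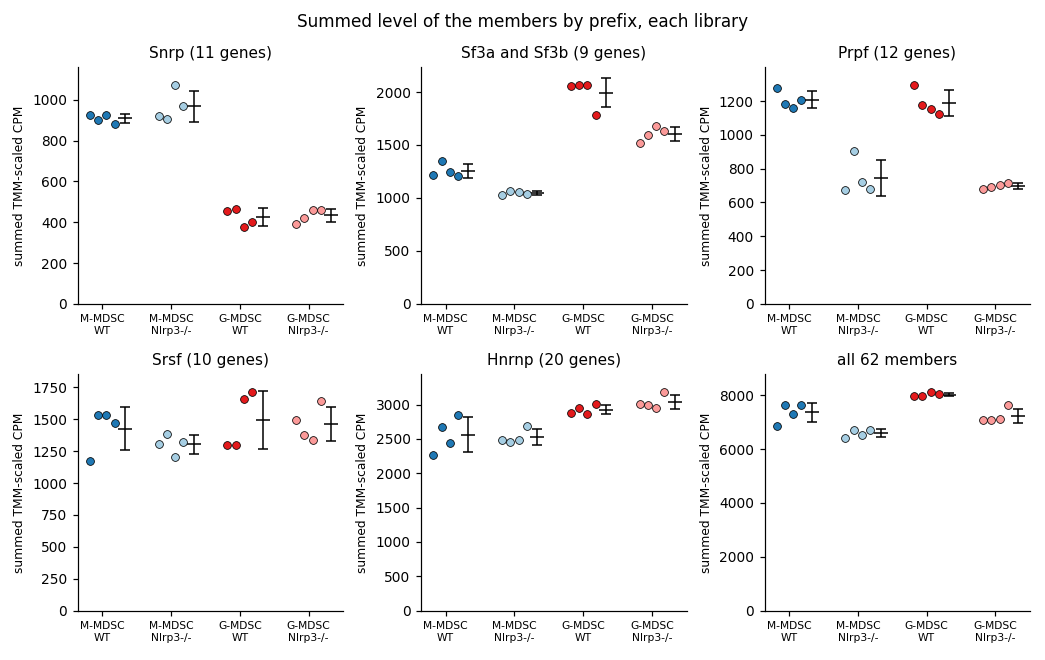
Summed CPM (TMM over 16 libraries) of the genes of each prefix, and of all 62, by group; each point is 1 library and the bar gives the mean with its SD (n = 4). The Prpf sums of Nlrp3-/- libraries (671.6 to 904.2 CPM in both subsets) lie below all WT libraries (1122 to 1296), and the Snrp sums of G-MDSCs (375.1 to 467) lie below all M-MDSC libraries (880.3 to 1073).

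Variation between mice was modest for most of these genes. The coefficient of variation within a group, averaged over the 4 groups, had a median of 16.9% over the 62 genes and 25.4% over all 9746 genes that passed the same count rule. It was smallest for Srsf3 (6.81%), a small SR protein, which ranged over 164 to 186 CPM (WT) and 173 to 179 (Nlrp3-/-) among M-MDSC libraries and over 119 to 141 (WT) and 121 to 157 (Nlrp3-/-) among G-MDSC libraries. It was largest for Snrpf (89.8%), Hnrnph2 (68.3%) and Hnrnpa1 (58.2%), 3 of the genes with the fewest libraries at 10 counts or more. Hnrnpa1 and Snrpg have processed pseudogenes that are nearly identical to them, so their counts are uncertain.

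For 3 of the widely varying genes with more counts, picked here after their values were seen, the same libraries stood at the ends. Srsf1, an SR protein that was among the first splicing factors to be purified, lay at 30.1, 72.7, 62.8 and 67.2 CPM in WT M-MDSCs (replicates 1 to 4 here and below) and at 99.3, 30.7, 34.3 and 41.2 in Nlrp3-/- M-MDSCs. Srsf4, a long SR protein, lay at 13.6, 43.3, 36.9 and 29.8 CPM in WT M-MDSCs and at 40.1, 9.21, 7.52 and 16.8 in Nlrp3-/- M-MDSCs. Sf3b6, a subunit of SF3B, lay at 62.4, 108, 129 and 96.3 CPM in WT M-MDSCs and at 165, 64.5, 37 and 131 in Nlrp3-/- M-MDSCs. Replicate 1 was the lowest WT M-MDSC library and the highest Nlrp3-/- M-MDSC library for all 3. The G-MDSC libraries of the same mice stood likewise. WT G-MDSC replicate 1 was the lowest of its group, at 37.7 (Srsf1), 16.4 (Srsf4) and 39.7 CPM (Sf3b6). Nlrp3-/- G-MDSC replicate 1 was the highest of its group, at 83.6, 37 and 163 CPM. Not all widely varying genes went this way. For Snrpd3 (36.6%) replicate 1 was the highest WT M-MDSC library (151 CPM) and the lowest Nlrp3-/- M-MDSC library (57.2). It was also the highest WT G-MDSC library for Snrpd3 (122 CPM), and Nlrp3-/- G-MDSC replicate 1 (48.3) stood at neither end. Over the 62 genes, WT M-MDSC replicate 1 was the lowest of its group for 31 (50% against 30.1% of all genes), and Nlrp3-/- M-MDSC replicate 1 was the highest of its group for 21 (33.9% against 24.3%) and the lowest for 20 (32.3% against 35.4%). What sets these libraries apart was not tested.

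Comparison of the subsets addresses how the splicing machinery differs between monocytic and granulocytic cells of one spleen. In WT mice 26 of the 62 genes were called, 10 higher and 16 lower in G-MDSCs (41.9%, against a background of 53.3% of 9739 genes, of which 26.3% were higher and 27.1% lower). In Nlrp3-/- mice 29 were called, 10 higher and 19 lower (46.8%, against 51% of 10071 genes, 23.7% higher and 27.4% lower). The share called was below the background in both genotypes. Without WT M-MDSC replicate 2, the library with the most granulocytic markers of its group, 27 were called in WT mice (9 higher, 18 lower). The median log2 fold change of the 62 genes was -0.16 in WT mice (-0.05 over all genes tested) and -0.15 in Nlrp3-/- mice (-0.12). Of the called genes, 23 of 26 in WT mice and 26 of 29 in Nlrp3-/- mice had no overlap between the 4 libraries of each subset, and over all 62 genes 29 and 34 had none, where 51.9% and 50.2% of all genes tested had none.

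The directions depend on how libraries are scaled. With library size alone in place of TMM, 42 genes were called in WT mice (1 higher, 41 lower) and 37 in Nlrp3-/- mice (1 higher, 36 lower), and the median of all genes moved to -0.79 and -0.83. With upper-quartile scaling the splits were 4 higher and 22 lower of 26, and 4 higher and 25 lower of 29, with medians of all genes of -0.27 and -0.28. A higher call in G-MDSCs is therefore a rise relative to the bulk of genes, and of these genes Srsf5 was the one called higher with library size alone. The median log2 fold change of the Snrp genes lay below that of all genes on both of these scales, at -1.28 and -1.23 in the WT and Nlrp3-/- mice under TMM and -2.04 and -1.95 with library size alone. The shares of all genes called with library size alone or upper-quartile scaling are not given, so those counts have no background here.

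The Snrp genes were the group with the most lower calls. In WT mice 9 of 11 were lower in G-MDSCs and 1 higher, and in Nlrp3-/- mice 10 were lower and 1 higher. By role, 6 of the 7 Sm ring genes were lower in WT mice and 7 of 7 in Nlrp3-/- mice, as were both U2 snRNP genes (Snrpa1 and Snrpb2) and 1 of the 2 U1 snRNP genes (Snrpa), while the other U1 gene, Snrpc, was higher. Snrpb2, which encodes the U2-B″ protein that binds U2 snRNA, lay at 235, 243, 251 and 244 CPM in WT M-MDSCs and at 67.8, 103, 70 and 79 in WT G-MDSCs, and at 223, 208, 232 and 190 and at 44.4, 67.9, 56.8 and 63.2 in the Nlrp3-/- cells. The subsets were far apart in every mouse. The log2 fold change was -1.60 (SE 0.17, adjusted p = 6.88e-06) in WT mice and -1.99 (SE 0.17, adjusted p = 2.57e-07) in Nlrp3-/- mice.

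Snrpb encodes SmB, the ring protein with a proline-rich tail. It lay at 127, 149, 142 and 121 CPM in WT M-MDSCs against 45.4, 48.7, 64.9 and 53.7 in WT G-MDSCs, and at 166, 156, 171 and 184 against 87.1, 68.9, 61.7 and 84.7 in the Nlrp3-/- cells. Again no G-MDSC library reached an M-MDSC library, with log2 fold changes of -1.34 (SE 0.16, adjusted p = 2.44e-05) and -1.28 (SE 0.17, adjusted p = 1.7e-05). Snrpg, the gene of SmG, lay at 142, 113, 143 and 136 CPM against 52.8, 24, 47.5 and 49 in WT mice and at 170, 162, 187 and 216 against 64.9, 90.4, 93.2 and 91.3 in Nlrp3-/- mice. Its log2 fold changes were -1.62 (SE 0.22, adjusted p = 7.28e-05) and -1.23 (SE 0.17, adjusted p = 3.22e-05), with the reservation on its pseudogenes. The other ring genes lower in both genotypes were Snrpd1, Snrpd2, Snrpe and Snrpf. In Nlrp3-/- mice Snrpf rested on few counts, at 36.8, 1.02, 3.34 and 2.95 CPM against 2.77, 0.247, 1.24 and 1.05 in G-MDSCs, which overlap, with M-MDSC replicate 1 far above the rest (-3.18, SE 1.01, adjusted p = 0.0156). Snrpd3, the gene of SmD3, lay at 57.2, 122, 175 and 89.4 CPM in M-MDSCs and at 48.3, 40.5, 69.6 and 48 in G-MDSCs of Nlrp3-/- mice, which overlap, and was called lower there (-1.20, SE 0.28, adjusted p = 0.00233). In WT mice it was not called (-0.43, adjusted p = 0.285). The calls for Snrpb2, Snrpb and Snrpg stood in every fit that left out 1 library.

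Snrpc encodes U1-C, the zinc finger protein that steadies the pairing of U1 snRNA with the 5′ splice site. It lay at 44.6, 30.4, 28.5 and 37.3 CPM in WT M-MDSCs and at 56.8, 66.3, 46.3 and 51 in WT G-MDSCs, and at 17.1, 21.7, 28 and 17.9 and at 31.6, 41, 33.6 and 31.2 in the Nlrp3-/- cells. G-MDSCs were above M-MDSCs in both genotypes, without overlap. The log2 fold changes of 0.65 (SE 0.20, adjusted p = 0.0133) and 0.60 (SE 0.22, adjusted p = 0.0351) were close to the threshold: the call was lost without WT M-MDSC replicate 2 or 3 or WT G-MDSC replicate 2, and without Nlrp3-/- M-MDSC replicate 1, 2 or 4 or Nlrp3-/- G-MDSC replicate 2. With library size alone the sign turned, to -0.10 and -0.12.

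**Figure D2:**
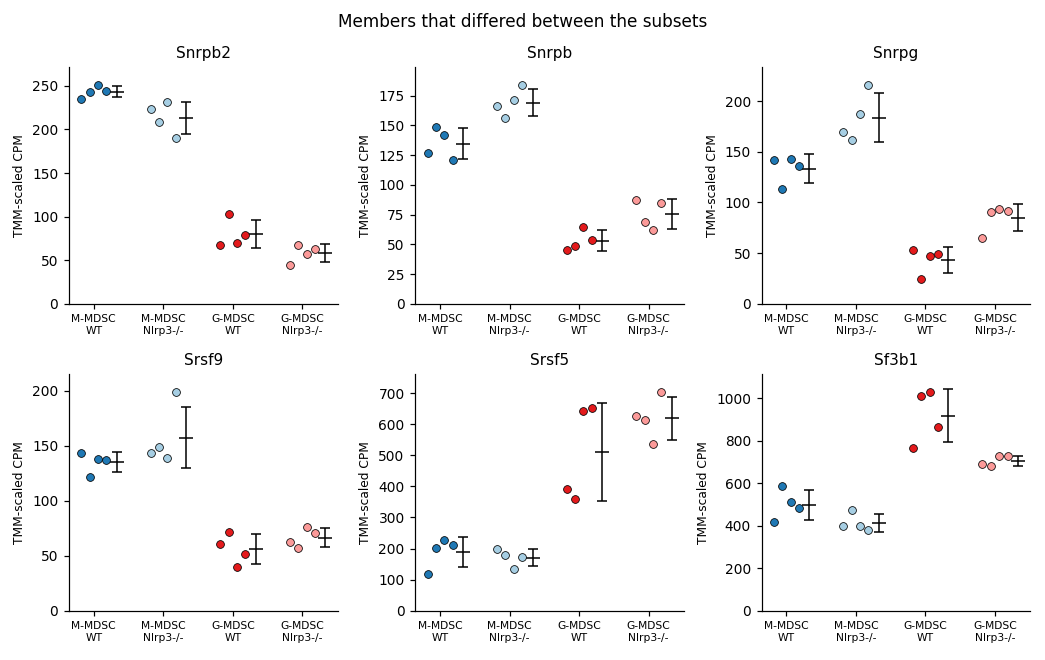
CPM (TMM over 16 libraries) of 6 genes that differ between the subsets, by group; each point is 1 library and the bar gives the mean with its SD (n = 4). Snrpb2, Snrpb, Snrpg and Srsf9 lie lower in all G-MDSC libraries than in all M-MDSC libraries of the same genotype, and Srsf5 and Sf3b1 lie higher, though with library size alone the log2 fold change of Sf3b1 in Nlrp3-/- mice was -0.06.

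The Sf3 genes were divided between the directions. Sf3b1, which encodes the largest SF3B subunit and clamps the branch point duplex, lay at 417, 585, 511 and 482 CPM in WT M-MDSCs and at 768, 1010, 1030 and 865 in WT G-MDSCs, and at 400, 474, 401 and 379 and at 689, 682, 727 and 727 in the Nlrp3-/- cells. All G-MDSC libraries were higher, with log2 fold changes of 0.88 (SE 0.17, adjusted p = 0.000896) and 0.66 (SE 0.14, adjusted p = 0.00105). Sf3b2, another SF3B subunit that contacts the pre-mRNA, lay at 517, 454, 391 and 441 CPM in WT M-MDSCs against 1100, 846, 751 and 674 in WT G-MDSCs. In the Nlrp3-/- cells it lay at 277, 373, 440 and 316 CPM against 489, 609, 651 and 647. It was higher in G-MDSCs in WT mice (0.90, SE 0.19, adjusted p = 0.00132) and Nlrp3-/- mice (0.66, SE 0.17, adjusted p = 0.0039), the latter call being lost without Nlrp3-/- M-MDSC replicate 1. With library size alone neither was called, and both log2 fold changes in Nlrp3-/- mice became -0.06.

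Sf3a1, an SF3A subunit with SURP domains, was lower in G-MDSCs. It lay at 36.6, 32.2, 33.5 and 28.8 CPM in WT M-MDSCs against 19.7, 22.3, 16 and 16 in WT G-MDSCs, a log2 fold change of -0.83 (SE 0.19, adjusted p = 0.00305). In the Nlrp3-/- cells it lay at 22.3, 12.8, 20.9 and 19.1 CPM against 10.6, 12.3, 12.2 and 11.8, a narrow gap with a log2 fold change of -0.80 (SE 0.27, adjusted p = 0.0206) that was not called without replicate 1 of either subset. Sf3a3, the zinc finger subunit of SF3A, lay at 18.2, 17.7, 23.9 and 25 CPM in WT M-MDSCs against 10, 7.11, 11.9 and 12.1 in WT G-MDSCs, and was lower (-1.03, SE 0.25, adjusted p = 0.00336). Sf3b3, a scaffold of SF3B, was lower in Nlrp3-/- mice, at 41.3, 49.6, 58.3 and 59.4 CPM against 32.1, 31.1, 36.9 and 39.9 (-0.69, SE 0.19, adjusted p = 0.007).

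Of the 12 Prpf genes, 4 were higher and 2 lower in G-MDSCs of WT mice, and 2 were higher and 3 lower in Nlrp3-/- mice. Prpf6, a bridge between the U5 and U4/U6 parts of the tri-snRNP, lay at 60.2, 44.7, 47.6 and 49.3 CPM in WT M-MDSCs against 96.8, 104, 102 and 82.1 in WT G-MDSCs, and at 46.9, 44, 51.8 and 46.5 against 91.3, 110, 92 and 119 in the Nlrp3-/- cells. It rose in every mouse relative to the bulk of genes, by log2 fold changes of 0.93 (SE 0.16, adjusted p = 0.000341) and 1.01 (SE 0.16, adjusted p = 0.000123). Prpf18, a factor of the second catalytic step, was also higher in both genotypes (0.76 and 0.79, adjusted p = 0.00632 and 0.0204). Prpf39, a U1-associated factor, was higher in WT mice, at 81.8 to 99.8 CPM against 45.7 to 61.5 in M-MDSCs (0.66, SE 0.16, adjusted p = 0.00355), a call that was lost without WT M-MDSC replicate 1 and whose sign turned to -0.09 with library size alone.

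Prpf19, the ubiquitin ligase at the core of the complex that activates the spliceosome, lay at 27.5, 35.6, 35.7 and 35.3 CPM in WT M-MDSCs against 9.01, 9.81, 18.7 and 14.8 in WT G-MDSCs, and at 41.8, 29, 19 and 34.8 against 20.1, 20.7, 15.3 and 14.7 in the Nlrp3-/- cells. It was lower in G-MDSCs in both genotypes (-1.34, SE 0.25, adjusted p = 0.000645 and -0.94, SE 0.28, adjusted p = 0.0102), with some overlap in Nlrp3-/- mice. Prpf31, which binds U4 snRNA and is mutated in a form of retinitis pigmentosa, was lower as well, at 7.35 to 13.9 CPM against 15.6 to 19.6 in WT mice and 4.62 to 12.6 against 13.4 to 17.7 in Nlrp3-/- mice (-0.86, SE 0.25, adjusted p = 0.0111 and -1.25, SE 0.34, adjusted p = 0.00657). Prpf4b, the kinase that phosphorylates proteins of the tri-snRNP, was lower in G-MDSCs of Nlrp3-/- mice (-0.93, SE 0.20, adjusted p = 0.00142). In WT mice its log2 fold change was -0.39 (adjusted p = 0.0347), under the fold minimum.

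Among the 10 Srsf genes 3 were called in each genotype, and they were the same 3. Srsf5, whose promoter is shown above, lay at 119, 201, 227 and 210 CPM in WT M-MDSCs and at 390, 358, 641 and 653 in WT G-MDSCs, and at 199, 179, 133 and 173 and at 625, 615, 535 and 704 in the Nlrp3-/- cells. G-MDSCs were higher in every mouse, with log2 fold changes of 1.43 (SE 0.26, adjusted p = 0.000478) and 1.74 (SE 0.17, adjusted p = 1.26e-06). Srsf9, a short SR protein close to Srsf1, lay at 143, 122, 138 and 137 CPM in WT M-MDSCs against 61.1, 71.4, 40 and 51.8 in WT G-MDSCs, and at 143, 149, 139 and 199 against 62.8, 57, 75.8 and 70.6 in the Nlrp3-/- cells. It was lower in G-MDSCs by log2 fold changes of -1.27 (SE 0.19, adjusted p = 0.000113) and -1.36 (SE 0.17, adjusted p = 1.56e-05). Srsf6, which is built like Srsf5 with a second, degenerate RNA recognition motif, was lower too (-0.80 and -0.92, adjusted p = 0.000521 and 0.000176), at 109 to 124 CPM against 57.1 to 72.8 in WT mice and 119 to 149 against 66.7 to 82.9 in Nlrp3-/- mice.

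The Hnrnp genes had few calls for their number, 2 higher and 1 lower of 20 in WT mice and 4 higher and 2 lower in Nlrp3-/- mice. Hnrnpa3, of the A/B family, lay at 27.9, 27.3, 28.2 and 27.1 CPM in WT M-MDSCs against 6.34, 5.75, 11.4 and 8.95 in WT G-MDSCs, and at 37.1, 29.7, 25.9 and 44.3 against 10.9, 15.1, 6.63 and 13.6 in the Nlrp3-/- cells. It fell by log2 fold changes of -1.75 (SE 0.24, adjusted p = 7.48e-05) and -1.70 (SE 0.29, adjusted p = 0.000241). Hnrnpc, which binds uridine tracts, lay at 261, 259, 271 and 291 CPM against 531, 350, 456 and 497 in WT mice and at 254, 269, 278 and 313 against 435, 550, 492 and 644 in Nlrp3-/- mice. It was higher in G-MDSCs (0.76, SE 0.16, adjusted p = 0.0016 and 0.81, SE 0.16, adjusted p = 0.000639). Hnrnpf, which binds runs of G, was higher in WT mice, at 14.4, 17.6, 28.6 and 33.1 CPM against 9.66, 14.6, 17.5 and 12 in M-MDSCs (0.79, SE 0.30, adjusted p = 0.0382), with overlapping libraries and a call lost in 5 of the 8 fits without 1 library (WT M-MDSC replicate 1, 2 or 4, WT G-MDSC replicate 3 or 4).

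In Nlrp3-/- mice the higher genes included Hnrnpa2b1, a relative of Hnrnpa3, at 117, 91.3, 83.3 and 84.7 CPM in G-MDSCs against 66.4, 44.9, 38.4 and 49.2 in M-MDSCs (0.80, SE 0.21, adjusted p = 0.0052). They also included Hnrnpu, a nuclear scaffold protein, at 337, 341, 311 and 359 CPM against 238, 174, 166 and 208 (0.66, SE 0.16, adjusted p = 0.00398). The call for Hnrnpu was lost without Nlrp3-/- M-MDSC replicate 3, and its log2 fold change turned to -0.07 with library size alone. Hnrnpd, also known as AUF1, which binds AU-rich elements, was lower, at 127, 155, 141 and 128 CPM against 167, 180, 247 and 205 (-0.65, SE 0.16, adjusted p = 0.00359), a call lost without Nlrp3-/- M-MDSC replicate 3 or Nlrp3-/- G-MDSC replicate 1.

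The WT and Nlrp3-/- comparisons of the subsets share no library. The 7 genes higher in G-MDSCs in both (70% of the 10 in each) were Hnrnpc, Prpf18, Prpf6, Sf3b1, Sf3b2, Snrpc and Srsf5. The 15 lower in both (93.8% of the 16 in WT mice and 78.9% of the 19 in Nlrp3-/- mice) were Hnrnpa3, Prpf19, Prpf31, Sf3a1, Srsf6, Srsf9 and the 9 Snrp genes lower in WT mice. How many of all genes tested were called alike in both genotypes was not counted, so these shares have no background. In the plot of fold changes between the subsets, the Snrp genes stand together on the low side apart from Snrpc.

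**Figure D3:**
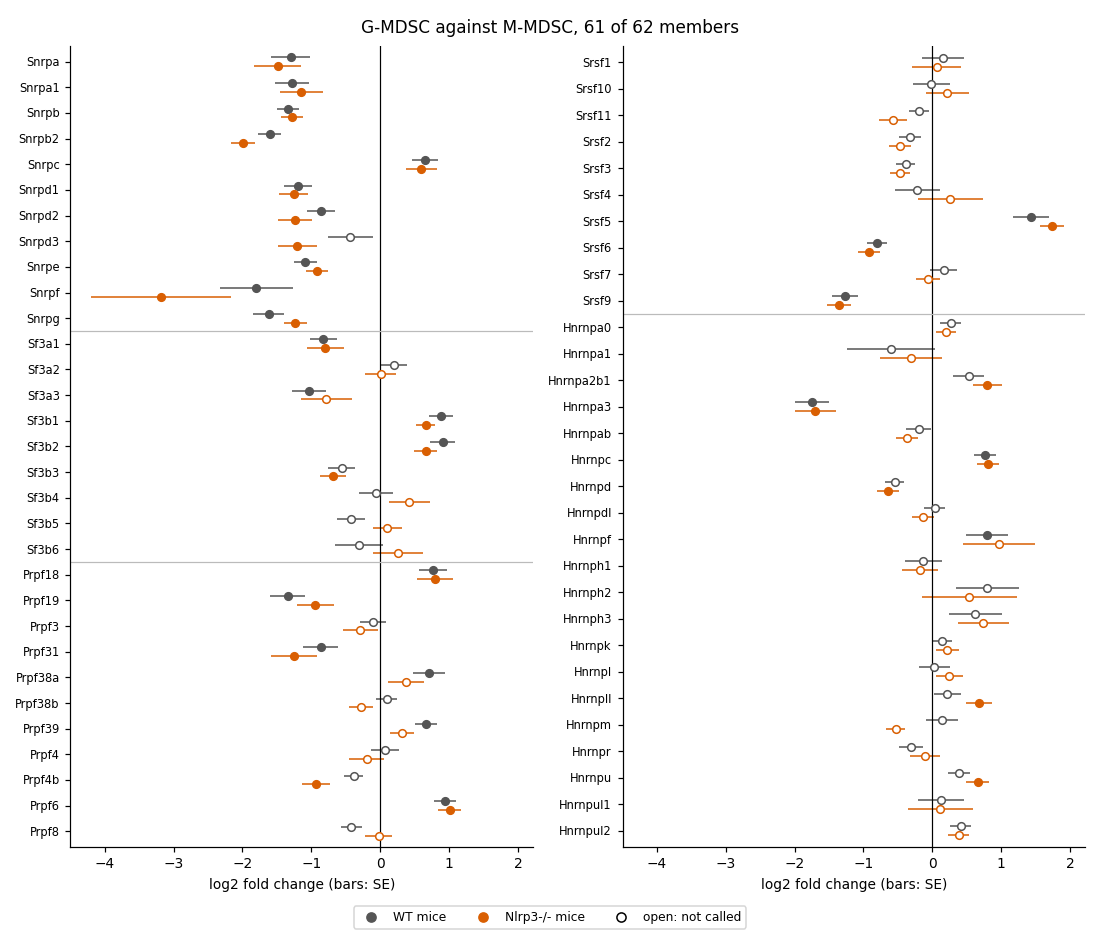
Log2 fold change with its SE of 61 of the 62 genes between G-MDSCs and M-MDSCs in WT mice (grey) and Nlrp3-/- mice (orange), grouped by prefix; a filled point is called. The Snrp genes have a median of -1.28 in WT and -1.23 in Nlrp3-/- mice under TMM, Snrpf in Nlrp3-/- mice is lowest at -3.18 with a wide SE of 1.01, and Srsf5 is highest at 1.43 and 1.74.

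Comparison of the genotypes addresses whether the loss of Nlrp3 goes with a change of the splicing machinery in each subset. In M-MDSCs 7 of the 62 genes were called, all lower in Nlrp3-/- mice (11.3%, against a background of 10.6% of 9986 genes, of which 7.1% were lower and 3.51% higher). In G-MDSCs 11 were called, 9 lower and 2 higher (17.7%, against 16.4% of 9273 genes, 11.7% lower and 4.7% higher). Both shares were close to the background, so the number of calls does not set these genes apart. The median log2 fold change was -0.14 in M-MDSCs (0.07 over all genes) and -0.17 in G-MDSCs (0.03). With offsets for transcript length and GC content these medians were 0.03 (0.07 over all genes) and -0.01 (0.05). The libraries of the genotypes did not overlap for 7 of the 7 called genes in M-MDSCs and 9 of the 11 in G-MDSCs, and for 12 and 21 of all 62, where 19.3% and 24.4% of all genes tested had no overlap. Single libraries moved these counts: in M-MDSCs 4 genes were called without WT replicate 2, the library highest in granulocytic markers, 4 without WT replicate 4, 3 without Nlrp3-/- replicate 4 and 12 without Nlrp3-/- replicate 1, all of them lower. In G-MDSCs 6 were called without Nlrp3-/- replicate 2 (0 higher) and 7 without Nlrp3-/- replicate 4 (2 higher).

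Other values moved with the genotype. The 45S ribosomal RNA gene Rn45s took 13.4 to 23.2% of counts in WT and 5.6 to 13.5% in Nlrp3-/- M-MDSCs, and 14.1 to 25.9% and 5.93 to 9.33% in G-MDSCs. The nuclear RNA Malat1 lay at 3180 to 6080 CPM in WT and 954 to 2040 in Nlrp3-/- M-MDSCs, and at 10400 to 16000 and 2740 to 3380 in G-MDSCs. The summed level of 12 red pulp macrophage and dendritic cell markers was 146 to 184 and 250 to 393 CPM in M-MDSCs and 281 to 425 and 643 to 793 in G-MDSCs, and that of 14 proliferation genes 259 to 755 and 145 to 251 in M-MDSCs and 196 to 581 and 120 to 297 in G-MDSCs. The 9 T and NK cell markers summed to 95.3 to 132 CPM in WT and 146 to 246 in Nlrp3-/- M-MDSCs, and to 130 to 192 and 185 to 262 in G-MDSCs. The sums of the 10 monocytic markers ran, WT before Nlrp3-/-, from 892 to 1480 and from 1620 to 2260 CPM in the granulocytic subset and from 7640 to 9580 and from 8310 to 15700 in the monocytic one. Their part in the results below was not tested.

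The clearest genotype differences were among the Prpf genes. Prpf4b lay at 298, 270, 283 and 304 CPM in WT M-MDSCs and at 103, 167, 132 and 85.6 in Nlrp3-/- M-MDSCs. In G-MDSCs it lay at 259, 210, 206 and 207 CPM in WT and at 69.8, 72.1, 77.1 and 55.9 in Nlrp3-/- mice. The highest Nlrp3-/- library was well under the lowest WT library in both subsets, and the log2 fold changes were -1.23 (SE 0.19, adjusted p = 0.00415) and -1.76 (SE 0.16, adjusted p = 2.25e-05).

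Prpf38b encodes a protein related to the PRP38 factor that the spliceosome needs for activation. It lay at 308, 286, 263 and 301 CPM in WT and at 128, 207, 144 and 127 in Nlrp3-/- M-MDSCs, and at 371, 261, 313 and 288 and at 143, 122, 134 and 139 in G-MDSCs. It fell in both subsets, by log2 fold changes of -0.91 (SE 0.17, adjusted p = 0.00832) and -1.28 (SE 0.15, adjusted p = 8.58e-05). For Prpf4b and Prpf38b alike, Nlrp3-/- M-MDSC replicate 2 was the highest of its group, as it was for Rn45s.

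In M-MDSCs 3 of the 12 Prpf genes were called, all lower, and all 12 had a negative log2 fold change there under TMM (9 of 12 with library size alone, 8 of 12 with offsets for length and GC content). In G-MDSCs 4 of the 12 were called, again all lower, and 9 of the 12 were negative. Prpf18, named here after its values were seen, was among these, at 47.7, 46, 72.2 and 59.2 CPM in WT and 40, 35.5, 38.7 and 33.3 in Nlrp3-/- mice (-0.70, SE 0.20, adjusted p = 0.0256). In M-MDSCs it lay at 27.7, 41.6, 31.8 and 31.5 CPM against 25.5, 19.6, 10.7 and 22, also without overlap, and was not called (-0.73, SE 0.26, adjusted p = 0.0902). The Prpf median was -0.21 in M-MDSCs and -0.52 in G-MDSCs.

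**Figure D4:**
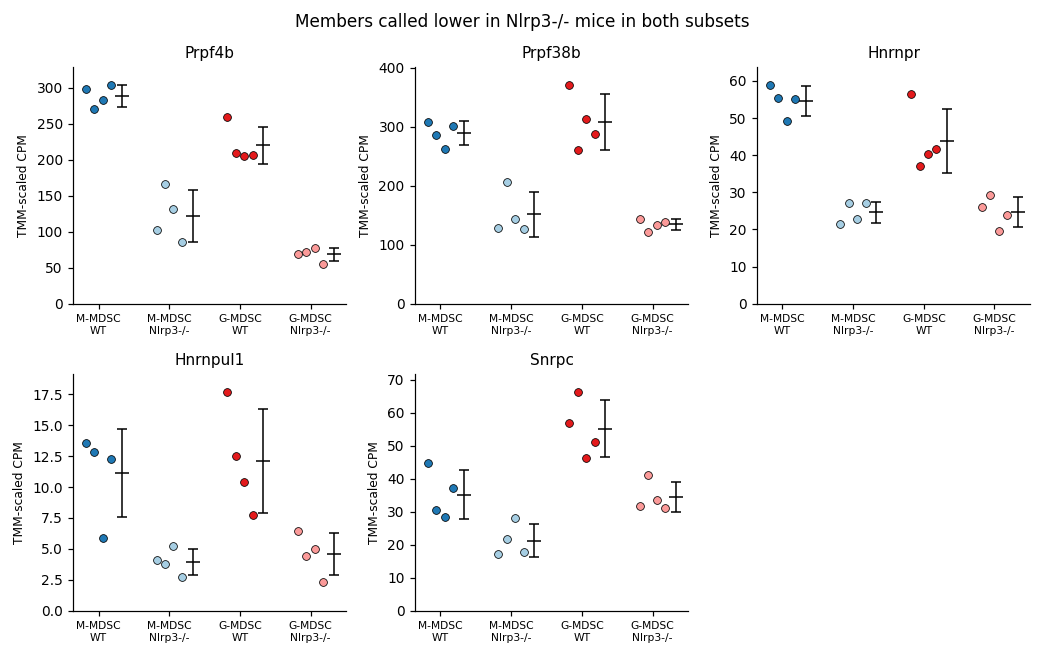
CPM (TMM over 16 libraries) of 5 genes called lower in Nlrp3-/- mice in both subsets, by group; each point is 1 library and the bar gives the mean with its SD (n = 4). For Prpf4b the Nlrp3-/- libraries lie at 55.9 to 167 CPM and the WT libraries at 206 to 304, and within each subset the genotypes do not overlap for any of the 5. After correction for transcript length and GC content, Hnrnpr was 0.02 in G-MDSCs (log2 fold change).

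Hnrnpr encodes an RNA-binding protein close to Syncrip. It lay at 58.9, 55.4, 49.2 and 55.2 CPM in WT and at 21.5, 27.1, 22.8 and 27 in Nlrp3-/- M-MDSCs, and at 56.4, 37.2, 40.2 and 41.6 and at 26.1, 29.4, 19.5 and 23.9 in G-MDSCs. The genotypes were apart in both subsets, with log2 fold changes of -1.13 (SE 0.16, adjusted p = 0.00294) and -0.91 (SE 0.21, adjusted p = 0.00964). Its annotated transcript is 21452 nt long, and in a fit corrected for length and GC content the values were -0.39 (adjusted p = 0.188) and 0.02 (adjusted p = 0.96).

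Hnrnpul1, a nuclear protein related to Hnrnpu, had few counts. It lay at 13.6, 12.8, 5.89 and 12.3 CPM in WT and at 4.07, 3.75, 5.22 and 2.7 in Nlrp3-/- M-MDSCs, and at 17.7, 12.5, 10.4 and 7.78 and at 6.47, 4.44, 4.97 and 2.36 in G-MDSCs. The gap between WT replicate 3 and the Nlrp3-/- M-MDSC libraries was small. The log2 fold changes were -1.48 (SE 0.33, adjusted p = 0.0178) and -1.48 (SE 0.40, adjusted p = 0.0199), and the call was lost without WT replicate 2 or 4 or Nlrp3-/- replicate 4 in M-MDSCs and without WT replicate 1 or Nlrp3-/- replicate 4 in G-MDSCs.

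Snrpc, whose levels are given above, was lower in Nlrp3-/- mice in both subsets as well (-0.72, SE 0.21, adjusted p = 0.0495 in M-MDSCs and -0.77, SE 0.20, adjusted p = 0.0156 in G-MDSCs). In M-MDSCs the lowest WT library (28.5 CPM) and the highest Nlrp3-/- library (28) nearly met, and the call was lost in 7 of the 8 fits without 1 library, all but that without Nlrp3-/- replicate 3. In G-MDSCs it was lost without Nlrp3-/- replicate 4 (adjusted p = 0.0509). In all, 6 genes were lower in both subsets, 85.7% of the 7 lower calls in M-MDSCs and 66.7% of the 9 in G-MDSCs, whose libraries come from the same mice. The same overlap was not counted over all genes tested, so it is not shown to be particular to these genes.

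Sf3a1 was called in M-MDSCs alone, at the levels given above (-0.77, SE 0.21, adjusted p = 0.0376), and it was lost without any of the WT libraries and without Nlrp3-/- replicate 3 or 4. In G-MDSCs it was not called (-0.74, SE 0.25, adjusted p = 0.057), again without overlap. In G-MDSCs Sf3b2 passed the adjusted p and not the fold minimum (-0.58, SE 0.18, adjusted p = 0.0356), as did Srsf2, an SR protein that binds both C-rich and G-rich exonic sites (-0.57, SE 0.15, adjusted p = 0.0179). Srsf2 lay there at 163, 149, 180 and 194 CPM in WT and at 129, 110, 134 and 119 in Nlrp3-/- mice, and in M-MDSCs at 172, 240, 212 and 236 against 179, 162, 130 and 152, which overlap (-0.43, SE 0.17, adjusted p = 0.114). Sf3b1 (-0.47, adjusted p = 0.046) and Srsf11 (-0.54, adjusted p = 0.0315), named after their values were seen, were the other 2 genes under the fold minimum. None of the 10 Srsf genes was called in either subset with all libraries, but Srsf2 passed in G-MDSCs in 4 of the 8 fits without 1 library and with offsets for length and GC content (-0.64, adjusted p = 0.0131), and 2 Srsf genes were called lower in M-MDSCs without Nlrp3-/- replicate 1. Sf3b2 likewise passed in G-MDSCs in 2 of the 8 fits.

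The remaining calls in G-MDSCs were less steady. Hnrnpm, which binds GU-rich RNA, lay at 518, 542, 270 and 417 CPM in WT and at 303, 264, 304 and 303 in Nlrp3-/- mice, so that WT replicate 3 fell among the Nlrp3-/- libraries. Its call (-0.66, SE 0.20, adjusted p = 0.0333) was lost in 7 of the 8 fits without 1 library, all but that without WT replicate 3. Snrpf, the gene of SmF, had 5, 12, 55 and 22 counts in WT and 12, 1, 6 and 4 in Nlrp3-/- mice, which overlap (-2.44, SE 0.71, adjusted p = 0.0287), and its call was lost without WT replicate 3 or 4 or Nlrp3-/- replicate 2, 3 or 4.

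The 2 genes higher in Nlrp3-/- G-MDSCs were Hnrnpl and Snrpg. Hnrnpl, which binds CA repeats and represses exons of the Cd45 transcript, lay at 58.1, 117, 74.9 and 81 CPM in WT and at 133, 144, 175 and 148 in Nlrp3-/- mice. The genotypes did not overlap (0.77, SE 0.21, adjusted p = 0.021), and the call was lost without WT replicate 4 or Nlrp3-/- replicate 2 or 3. Snrpg (0.89, SE 0.23, adjusted p = 0.0175), at the levels given above, was also without overlap and lost its call without Nlrp3-/- replicate 2 (adjusted p = 0.0538). In M-MDSCs Snrpg was higher by 0.49 (SE 0.15, adjusted p = 0.0573) on the log2 scale, which did not pass the test.

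**Figure D5:**
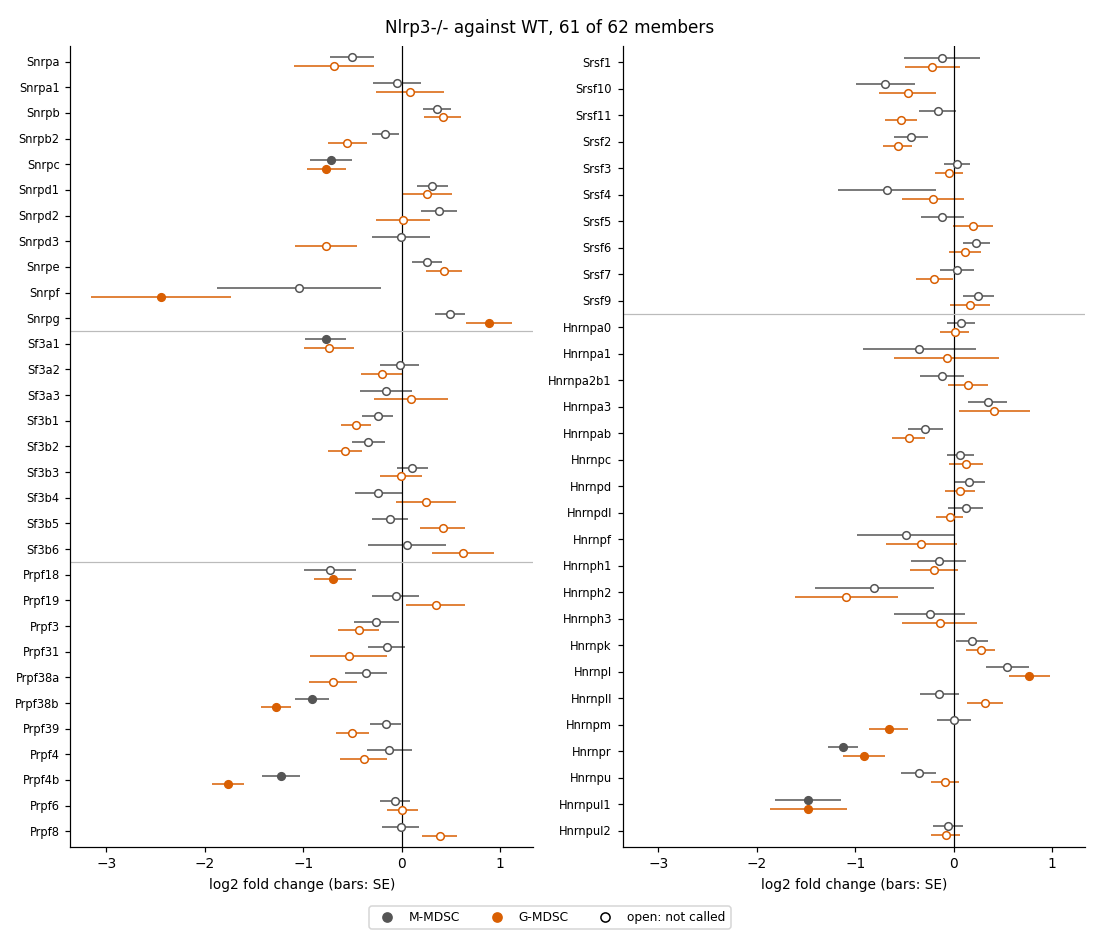
Log2 fold change with its SE of 61 of the 62 genes between Nlrp3-/- and WT mice in M-MDSCs (grey) and G-MDSCs (orange), grouped by prefix; a filled point is called. Prpf4b (-1.23 and -1.76), Prpf38b (-0.91 and -1.28), Hnrnpr (-1.13 and -0.91) and Hnrnpul1 (-1.48 in both) stand on the low side in both subsets, Hnrnpr before the correction for length and GC content only.

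The length and GC content of transcripts also went with the genotype calls. In M-MDSCs the genes called lower had a median length of 4769 nt and a median GC content of 44.5%, against 2508.5 nt and 55.2% for those called higher and 3013 nt and 50.2% for those not called. The 7 splicing factor genes called lower had medians of 4920 nt and 47.1%, and those not called 2679 nt and 45.5%. In G-MDSCs the genes called lower had medians of 4742.5 nt and 44.9% and the 9 splicing factor genes among them 3784 nt and 44.3%. With offsets for length and GC content fitted in each library, 4 genes were called in M-MDSCs (0 higher, 4 lower) and 14 in G-MDSCs (7 higher, 7 lower), in place of 7 and 11. Prpf4b was still called in both (-0.75, adjusted p = 0.0327 and -1.12, adjusted p = 0.00117), as were Prpf38b (-0.77, adjusted p = 0.0325 and -1.10, adjusted p = 0.00117) and Hnrnpul1 (-1.59, adjusted p = 0.0217 and -1.55, adjusted p = 0.0242). Library size alone gave 6 calls in M-MDSCs (1 higher, 5 lower) and 9 in G-MDSCs (2 higher, 7 lower). The shares of all genes called with the offsets or with library size alone are not given beside these counts.

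Whether the genotype effect differed between the subsets was tested as an interaction in all 16 libraries. By edgeR's test none of the 62 genes passed an adjusted p of 0.05 with no fold minimum (0 called, against a background of 3 of 10696 genes, 0.028%, with 0.0187% higher and 0.00935% lower). At an unadjusted p under 0.05 there were 2 (3.23%, against 4.49% of all genes tested), and DESeq2 also called 0. The main interaction fit did not pair the M-MDSC and G-MDSC libraries of a mouse. With a block by mouse, which pairs them, that unadjusted count was 7. It was 6 with the block and the offsets for length and GC content, and 7 without Nlrp3-/- M-MDSC replicate 1. The share of all genes at that unadjusted p was not counted in these other fits. A call in one subset alone, such as that of Sf3a1 in M-MDSCs or Hnrnpl in G-MDSCs, is thus not shown to be a difference between the subsets.

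The wider set of splicing and related genes outside these prefixes, 170 in 7 lists, was read from the same fits. These were the fits with TMM and all libraries alone. Whether the counts of the lists hold with offsets for length and GC content, other scalings or left-out libraries was not tested. In M-MDSCs 3 of the 165 tested were higher and 42 lower in Nlrp3-/- mice (27.3%, against 10.6% of all genes tested, median log2 fold change -0.23), and in G-MDSCs 5 of 160 were higher and 55 lower (37.5%, against 16.4%, median -0.45), where the medians of all genes were 0.07 and 0.03. Between the subsets, 35 were higher and 22 lower in G-MDSCs of WT mice (34.5%, against 53.3%) and 27 and 34 in those of Nlrp3-/- mice (37.4%, against 51%). The same backgrounds stand beside the counts of each list. Rnps1 belongs to both the SR-related and the exon junction list and is counted in each of them but once in these totals. The list with the most genotype calls was that of SR kinases and SR-related regulators, with 1 higher and 16 lower of 34 in M-MDSCs (median -0.62) and 0 higher and 21 lower in G-MDSCs (median -0.93). In M-MDSCs these included Cdk13, a kinase that phosphorylates RNA polymerase II (-1.18, SE 0.16, adjusted p = 0.0026), and Pnn, a protein of the exon junction complex periphery (-1.20, SE 0.17, adjusted p = 0.00314). In G-MDSCs they included Ppig, a nuclear cyclophilin with an SR domain (-1.21, SE 0.14, adjusted p = 6.49e-05), and Pnisr (-1.30, SE 0.15, adjusted p = 6.49e-05).

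Other lists had fewer calls. Of the factors of spliceosome activation and catalysis, 0 were higher and 6 of 27 lower in M-MDSCs and 0 higher and 7 of 26 lower in G-MDSCs. Crnkl1, a scaffold of the catalytic spliceosome, was lower in both subsets (-1.43, SE 0.19, adjusted p = 0.00216 and -1.45, SE 0.19, adjusted p = 0.000229), Cwc22 in M-MDSCs (-1.33, SE 0.23, adjusted p = 0.00512) and Wbp11 in G-MDSCs (-1.69, SE 0.26, adjusted p = 0.000591). Of the exon junction complex and nonsense-mediated decay genes, 4 of 14 were lower in M-MDSCs and 6 of 13 in G-MDSCs, with 0 higher. Smg1, the kinase of UPF1, was lower in both (-0.95, SE 0.19, adjusted p = 0.0103 and -1.29, SE 0.15, adjusted p = 7.64e-05), Upf3a in M-MDSCs (-1.37, SE 0.20, adjusted p = 0.00362) and Upf3b in G-MDSCs (-1.12, SE 0.20, adjusted p = 0.00207).

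Of the other RNA-binding regulators, 1 was higher and 11 lower of 47 in M-MDSCs and 1 higher and 15 lower of 45 in G-MDSCs, among them Rbm27 (-0.98, adjusted p = 0.00395) and Zranb2 (-1.03, adjusted p = 0.00413) in M-MDSCs and Rbm26 (-1.43, adjusted p = 6.49e-05) and Fubp1 (-1.34, adjusted p = 0.000329) in G-MDSCs. Of the 16 factors of the 3′ splice site and branch point, 1 was higher and 2 lower in M-MDSCs and 1 higher and 5 lower in G-MDSCs. Htatsf1, a U2-associated factor, was lower in both (-1.05, adjusted p = 0.00582 and -2.05, adjusted p = 0.00377), as was U2surp, a U2-associated SR-rich protein (-0.61, adjusted p = 0.0262 and -0.85, adjusted p = 0.00338).

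The list nearest to the Snrp genes, 14 further snRNP genes, had 0 higher and 2 lower in each subset. They were Snrnp48, of the U11 snRNP of the minor spliceosome (-1.04, SE 0.18, adjusted p = 0.00507 and -1.36, SE 0.19, adjusted p = 0.000346), and Ddx23, the helicase of the U5 snRNP (-2.40, SE 0.49, adjusted p = 0.011 and -3.98, SE 0.88, adjusted p = 0.00723). The LSm genes, which encode Sm-like proteins, were listed as a family and not by a role in splicing, so their calls are not calls of splicing factors as such. Of the LSm genes, 0 were higher and 1 of 14 lower in M-MDSCs (Lsm12, -1.01, adjusted p = 0.00832). In G-MDSCs 3 of 13 were higher and 0 lower, including Lsm10 (0.67, adjusted p = 0.011) and Naa38 (0.81, adjusted p = 0.0262).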

How the data were processed

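The authors mapped reads of QuantSeq 3′ FWD libraries to mm10, and their deposited files give raw read counts, 1 whole number for every library and each of 24421 symbols. The submitters' processing notes name HISAT2 2.1.0, HTSeq and edgeR 3.14.0. Libraries were amplified with one of a pair of cycle numbers, and which library had which is not given in the sources used here. No column was left unmapped to a sample.

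Counts were used as deposited, in R 4.3.3. Genes were filtered with filterByExpr, libraries scaled by TMM, and each pair of groups (4 libraries against 4) fitted on its own 8 libraries by the quasi-likelihood test of edgeR 4.0.16. In the comparisons of the subsets both sides came from the same 4 mice. The main fits there were unpaired, and the mouse entered only as a block in an alternative. Called genes had a Benjamini-Hochberg FDR under 0.05 over all genes tested and over 1.5-fold change. SEs were obtained as the absolute log2 fold change over the square root of the F statistic. The interaction was fitted on all 16 libraries, with no fold minimum. It too was unpaired in the main fit, with the mouse as a block in an alternative. Displayed CPM use TMM factors over 16 libraries, while fold changes use those of the 8 compared: between these scales the median log2 fold change of all genes moved by -0.03 and 0.09 for the genotypes in M-MDSCs and G-MDSCs, and by -0.01 and 0.12 for the subsets in WT and Nlrp3-/- mice. The scripts were tested on simulated data.

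The 24 pairs of libraries within groups held 0 identical pairs, and their counts differed beyond sampling noise (chi-square per degree of freedom 7.25 to 54.5). Replicates are separate mice. By the labels, M-MDSC and G-MDSC libraries with one number and genotype share a mouse, and their deviations from the group means correlated at 0.0983 to 0.447 in WT and 0.00821 to 0.396 in Nlrp3-/- mice. WT and Nlrp3-/- libraries of the same number are different mice.

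Transcript lengths and GC contents came from GENCODE M21, in which 23376 symbols were matched by symbol, 670 by an older symbol and 375 not at all. Each gene was given the values of its longest transcript, taken among protein-coding transcripts where the gene had any. Promoters came from RefSeq (GRCm38.p6). Alternatives were DESeq2 1.42.0, other scalings and filters, offsets for length and GC content (splines with 4 degrees of freedom each, fitted to each library's deviations across genes), replicate blocks, and fits without each library. Plots were made with matplotlib 3.10.9 (Python 3.11).

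The genes and lists were chosen with earlier results of these data known. The genes named are Nlrp3, the 3 called genes of each prefix with the smallest p in each direction and comparison (or the 1 with the smallest p where none was called), those nearest the count limit, and the 2 called genes with the smallest p per further list and genotype comparison. The values of 1 gene of the set are not reported here, though it is in the counts and sums. Others are said to be named after their values were seen, or stand in full lists of calls.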

Additional observations from a re-analysis of the deposited data

Results flagged for a closer look

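A library stood apart from the other 3 of its group, by Dixon's test at its 95% critical value, in 11 of the 156 groups of 4 checked over the named genes and the sums. Chance flags about 1 in 20 groups.

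In WT M-MDSCs, Hnrnpul1 was at 5.89 CPM in replicate 3 (the others at 12.3 to 13.6) and Prpf19 at 27.5 in replicate 1 (35.3 to 35.7). In Nlrp3-/- M-MDSCs, Snrpf was at 36.8 CPM in replicate 1 (1.02 to 3.34), and the Hnrnp genes summed to 2690 in replicate 4 (2450 to 2490). In WT G-MDSCs, replicate 1 was high for Prpf4b at 259 CPM (206 to 210) and for Sf3b3 at 46.7 (27.9 to 30), and the Sf3 genes summed to 1790 in replicate 4 (2050 to 2070). In Nlrp3-/- G-MDSCs, Snrpg was at 64.9 CPM in replicate 1 (90.4 to 93.2), Hnrnpm at 264 in replicate 2 (303 to 304) and Prpf31 at 12.6 in replicate 4 (4.62 to 5.92), and all 62 genes summed to 7630 in replicate 4 (7090 to 7130). The high Prpf31 library is the one nearest to the M-MDSC libraries, and the high Prpf4b library is the one farthest from the Nlrp3-/- libraries.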

How the results depend on the processing

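The number of genes called in M-MDSCs between the genotypes (7) became 4 with length and GC offsets, 3 with a replicate block and 0 with both (15 at an unadjusted p under 0.05), and that in G-MDSCs (11) became 7 with the replicate block, 3 with the block and the offsets, and 17 (2 higher, 15 lower) with library sizes counted without Rn45s, an alternative chosen after seeing the data. WT and Nlrp3-/- mice share only a number (correlations of -0.488 to 0.0251 in M-MDSCs and -0.33 to -0.0512 in G-MDSCs, 0 of 8 libraries closest to its own number), so the loss under the block says nothing of a weaker effect. The WT count between the subsets (26) became 42 with library size alone. The block by mouse gave 27 (10 higher, 17 lower) in WT and 31 (12 higher, 19 lower) in Nlrp3-/- mice and changed no call of a named gene there. The cause of these moves was not tested, and no share of all genes called under each setting stands beside the counts.

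Without 1 library each, the counts were 3 (without Nlrp3-/- replicate 4) to 12 (without Nlrp3-/- replicate 1) in M-MDSCs, 6 (without Nlrp3-/- replicate 2) to 13 (without WT replicate 3) in G-MDSCs, 25 to 27 and 27 to 32 between the subsets in WT and Nlrp3-/- mice, and 0 to 0 for the interaction. DESeq2 gave 8, 11, 26, 28 and 0 (in Nlrp3-/- mice 61 genes had an adjusted p), and 1 model of all 16 libraries 8, 9, 24 and 28. Of the calls with all libraries, 6, 9, 25, 28 and 0 fell on the 58 genes with 10 counts or more in all 16 libraries. A separate fit on genes with at least 10 counts in every library of the comparison called 7 of 60 in M-MDSCs, 10 (2 higher, 8 lower) of 59 in G-MDSCs, 24 and 30 between the subsets and 0 for the interaction.

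The ratio of the summed genes moved from 0.977 on shares of counts to 0.895 on TMM-scaled CPM (Nlrp3-/- over WT) in M-MDSCs and from 0.925 to 0.902 in G-MDSCs, and between the subsets (G-MDSC over M-MDSC) it turned from 0.650 to 1.09 in WT and from 0.616 to 1.10 in Nlrp3-/- mice, where the granulocytic transcripts enter the share's total.

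With length and GC offsets Hnrnpr in G-MDSCs was 0.02, and 0.03 with the block as well. With library size alone, and then without Rn45s in it, the log2 fold changes of the subsets turned for Snrpc (-0.10 and -0.06 in WT, -0.12 and -0.12 in Nlrp3-/- mice), Prpf39 in WT mice (-0.09 and -0.06), and in Nlrp3-/- mice Hnrnpu (-0.07 and -0.07), Sf3b1 (-0.06 and -0.07) and Sf3b2 (-0.06 and -0.06). Over all named genes and settings other than left-out libraries, 645 values kept their direction and side of the threshold, 76 fell below it, 6 rose above it and 14 turned. With left-out libraries the numbers were 435, 55 and 6, with 0 turned.

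Depth limits the scarce genes: Snrpf had 1 to 12 counts in Nlrp3-/- G-MDSCs, and Hnrnpul1 and Hnrnpa1 missed 10 counts in 1 library each.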
